A study of Mus musculus with 8 samples.

Results

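The genes described here encode the proteins of the mitochondrial ribosome. They were chosen by symbol: protein-coding mouse genes named Mrpl or Mrps with a number, without the pseudogene models marked -ps, and with a mean of at least 1 FPKM over vehicle replicates 1 to 3. FPKM is a fragment count scaled by exon length and library size, meant to let levels of different genes be compared. Here the unit was inferred from the values, and the 2 expression tables described below ranked the genes differently. Levels of different genes are therefore compared only within a table. Of 83 matching symbols among the 55450 genes listed, 5 were -ps models, and the remaining 78 all met the threshold. No matching protein-coding gene lay below 1 FPKM. The 3 nearest to it were Mrpl53, Mrpl47 and Mrps35, with vehicle means of 1.18, 1.53 and 1.80 FPKM.

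Cells were grown from the bone marrow of SS dry eye mice (SS as the labels abbreviate it) and are given in the labels as dendritic cells, although the sample titles use an abbreviation usual for macrophages. Vehicle cultures received phosphate-buffered saline, and the treated cultures received recombinant S100A8/A9, a pair of calcium-binding proteins that myeloid cells release in inflammation. Both groups came from the same mouse model, so no culture from healthy mice is part of the comparison, and the age, strain, dose and time of exposure are not given in the sources used here. Each group held 4 libraries. Replicates 1 to 3 share 1 expression table and replicate 4 of both groups stands in a separately made table, so the difference between the groups was tested in replicates 1 to 3, and that of replicate 4 is given beside it. The labels do not say whether replicates came from separate animals or cultures. The p-values measure the spread between these libraries or, in a fit that pairs replicate numbers, the spread of within-pair differences. Either spread may be technical.

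The mitochondrial ribosome translates the few messenger RNAs that the mitochondrial genome encodes, all for subunits of the respiratory chain and ATP synthase. Its RNA comes from the mitochondrial genome, while all of its proteins are encoded in the nucleus, made in the cytosol and imported. The large subunit joins amino acids, and the small subunit reads the messenger. Some of the proteins have a counterpart in bacteria, and others were added in the course of mitochondrial evolution. Myeloid cells shift between mitochondrial respiration and glycolysis when they are activated, which is why this machinery is of interest in dendritic cells.

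The 78 genes lay on 17 chromosomes, with 11 on chromosome 11 and 8 on chromosome 17. The annotated start of 33 of them (42.3%) was within 1000 bases of the start of a protein-coding gene read from the opposite strand, against 17.8% of the 10081 protein-coding genes tested. One such pair consisted of 2 of the genes themselves, Mrpl46 and Mrps11. RefSeq promoter windows (250 bases before to 50 after each start, GRCm38.p6) were matched for 69 of the genes, giving 75 windows. Matches to CCGGAAG, the core bound by ETS-family factors such as GABP, occurred on either strand in 34.7% of these windows, against 19.1% of the 10556 windows of tested genes and 8.86% of all 32851 windows. For AAGATGGC, the core bound by YY1, the shares were 16%, 4.94% and 2.75%. For GCGCA and GCGC separated by 1 base of any kind, the core bound by NRF1, they were 17.3%, 10.8% and 4.6%. At least 1 of the 3 motifs was present in 57.3%, 30.9% and 14.7% of windows, respectively. Median GC content of the windows was 58.7% for these genes and 60.7% for tested genes. These are matches of letters, and binding was not measured.

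The 100 bases before the start are shown for the 3 genes with the largest mean differences between the groups and for Mrps21, the small subunit gene with the highest level. Capitals mark a complete match to the NRF1 or ETS motif on either strand. The Mrpl57 stretch, chr14:57826139-57826238 on the forward strand, and the Mrps21 stretch, chr3:95871515-95871614 on the reverse strand, hold an NRF1 match. The Mrpl58 stretch, chr11:115403652-115403751 on the forward strand, holds an ETS match. The Mrps14 stretch, chr1:160195115-160195214 on the forward strand, holds none of the 3 motifs. The same stretches of Mrpl24, the gene with the highest level, and of Mrpl49 were also read. They hold none of the 3 motifs and are not shown. The counted windows also reach 50 bases past the start. There Mrpl49 has a YY1 match, Mrpl57 and Mrps21 each have an ETS match, and a second ETS match of Mrpl58 lies across the start. The windows of Mrps14 and Mrpl24 hold none.
Mrpl57: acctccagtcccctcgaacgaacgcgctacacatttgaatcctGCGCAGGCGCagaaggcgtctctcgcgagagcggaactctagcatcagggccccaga
Mrpl58: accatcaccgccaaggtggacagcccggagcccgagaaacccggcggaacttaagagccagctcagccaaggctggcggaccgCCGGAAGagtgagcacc
Mrps14: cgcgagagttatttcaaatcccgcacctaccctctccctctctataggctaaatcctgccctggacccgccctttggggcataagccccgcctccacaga
Mrps21: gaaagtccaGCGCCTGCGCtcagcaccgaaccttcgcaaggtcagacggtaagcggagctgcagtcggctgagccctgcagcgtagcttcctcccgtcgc

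The libraries of the first table had FPKM sums from 282921 to 303660, and low values gave rough depths from 22800000 to 25700000 reads. In the second table, where values were whole multiples of 1 read, depths were 31900000 reads for vehicle and 33400000 for S100A8/A9. Dendritic cell markers were only partly present: 7 of 12 had a vehicle mean of at least 1 FPKM, among them Itgax, Ccr7 and Zbtb46, while Cd209a was listed at 0 in all 6 libraries. All 12 macrophage markers were at 1 FPKM or more, and Csf1r, the receptor for macrophage colony-stimulating factor, averaged 147.5 FPKM in vehicle.

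The 78 genes were expressed at low to moderate levels that spanned 19.7-fold between genes. The median of the vehicle means was 6.60 FPKM, close to the 6.64 FPKM of all 11387 genes tested. In all, 24 genes were at 10 FPKM or more and 30 were under 5 FPKM. For comparison, the median was 183 FPKM for 77 protein genes of the cytosolic ribosome and 1113 FPKM for 13 protein genes of the mitochondrial genome. Together the 78 genes made up between 0.201% and 0.228% of the FPKM sum of a library of the first table.

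**Figure D1:**
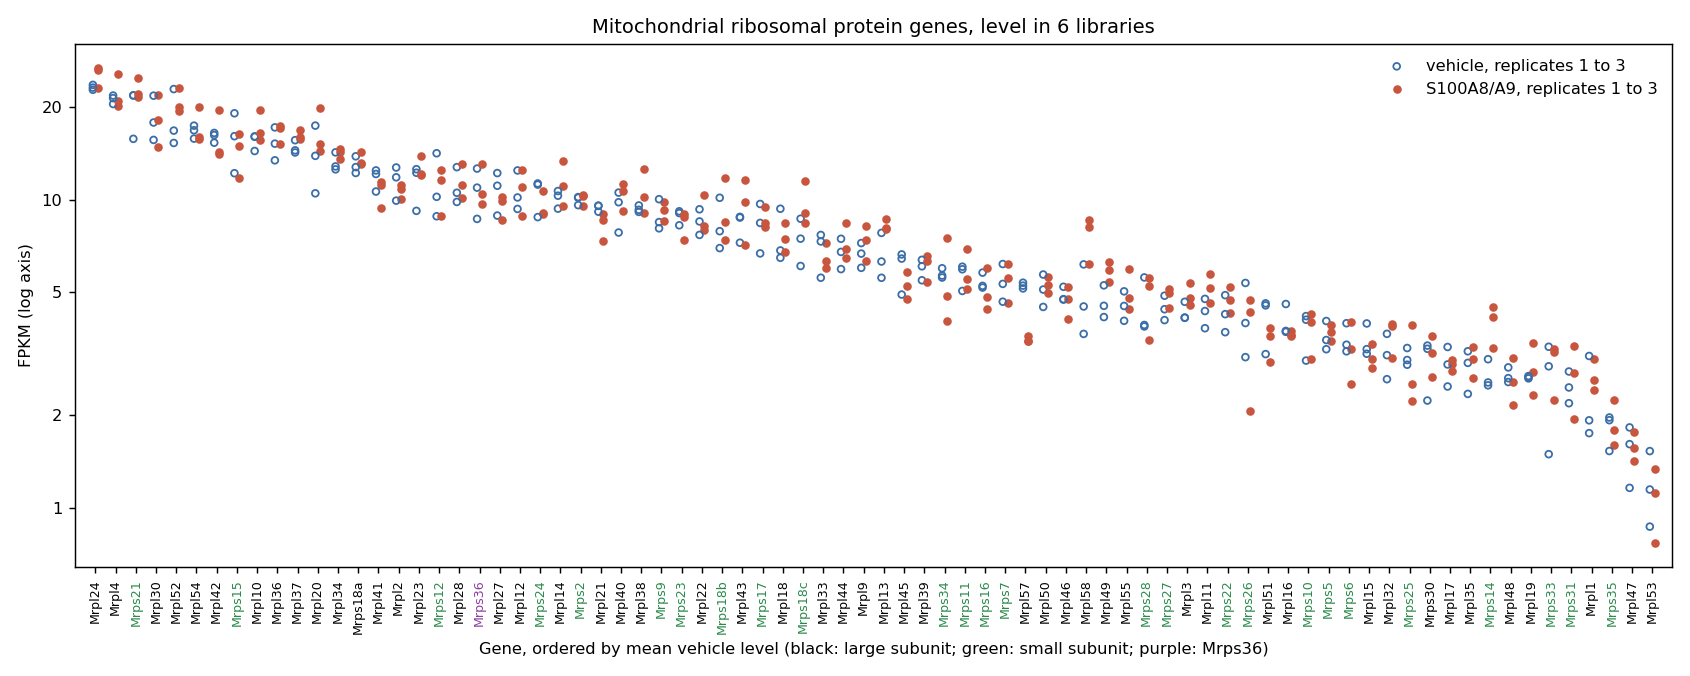
FPKM (log axis) of each of the 78 genes in the 6 libraries of the first table, ordered by mean vehicle level. Open points are vehicle and filled points S100A8/A9, and name colors give the subunit. Levels run from 23.2 FPKM for Mrpl24 to 1.18 FPKM for Mrpl53, and S100A8/A9 points lie wholly above vehicle for 5 genes and wholly below for 2.

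Large subunit genes with a bacterial counterpart included the highest levels. Mrpl24 (uL24m), which lies on chromosome 3 from 87919506 to 87923672 on the forward strand in mm10, led all genes. It was at 22.8, 23.6 and 23.1 FPKM in vehicle replicates 1 to 3 and at 26.5, 23.1 and 26.8 FPKM with S100A8/A9. Replicate 2 of S100A8/A9 was as low as the vehicle libraries, so the groups overlapped. Mrpl4 (uL4m), on chromosome 9, was at 21.8, 20.47 and 21.4 FPKM in vehicle and at 20.2, 20.9 and 25.6 FPKM with S100A8/A9, where replicate 1 of S100A8/A9 was just below the vehicle range and replicate 3 above it. The median over the 30 genes of this class was 8.03 FPKM. Mrpl12 (bL12m), part of the stalk that recruits translation factors, was at 10.2, 12.4 and 9.33 FPKM in vehicle and 8.88, 10.99 and 12.5 FPKM with S100A8/A9. It was lower with S100A8/A9 in replicates 1 and 2 and higher in replicate 3, and its mean difference of 0.01 on the log2(FPKM + 1) scale changed sign in 15 of 23 alternative analyses, each scaling among them. The lowest of the class were Mrpl47 and Mrpl1, which had vehicle means of 1.53 and 2.26 FPKM.

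Among the 21 large subunit genes without a bacterial counterpart the median was 6.0 FPKM, and the highest were Mrpl52, Mrpl54 and Mrpl42 at 18.3, 16.7 and 16.0 FPKM. Mrpl30, of the class with counterparts, lay between Mrps21 and Mrpl52 at 18.4 ± 3.11 FPKM (SD, n = 3), and Mrpl52 had an SD of 4.02, so their order is within the spread. Mrps18a and Mrps30, although named for the small subunit, encode proteins located in the large subunit and are counted with it. Mrpl53 had the lowest level of all, at 1.14, 0.867 and 1.53 FPKM in vehicle. It shares 88.0% of its exon bases with Gm42688, a gene model on the same strand, so its reads cannot be assigned with certainty, and it has no replicate 4 value here.

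Small subunit genes had a median of 5.401 FPKM over 26 genes, against 6.86 FPKM over the 51 of the large subunit. The ratio of the medians of the subunits lay between 1.28 and 1.39 in the 3 vehicle libraries and between 1.44 and 1.63 in the 3 S100A8/A9 libraries. In the second table it was 1.32 with vehicle and 1.42 with S100A8/A9. The ratio of the summed FPKM of the subunits, in contrast, overlapped, between 2.4 and 2.76 in vehicle and between 2.50 and 2.68 with S100A8/A9, and no difference in either ratio was tested. The 16 small subunit genes with a bacterial counterpart had a median of 6.55 FPKM and the 10 without had 4.21 FPKM. No gene of the latter class reached 10 FPKM, and Mrps23 was its highest at 8.83 FPKM.

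Mrps21 (bS21m), on chromosome 3 from 95862634 to 95871519 on the reverse strand, was at 21.8, 21.8 and 15.8 FPKM in vehicle and 21.5, 22.1 and 24.8 FPKM with S100A8/A9. Vehicle replicate 3 was the low one. Mrps15 (uS15m) was also lowest in replicate 3, with 16.1, 19.1 and 12.2 FPKM in vehicle and 16.3, 14.9 and 11.8 FPKM with S100A8/A9. Mrps12 (uS12m), which sits at the decoding center, had 14.2, 10.2 and 8.84 FPKM in vehicle and 12.5, 11.6 and 8.83 FPKM with S100A8/A9. For Mrps12 the groups had nearly the same mean, and its difference of 0.0003 on the log2(FPKM + 1) scale changed sign in 15 of 23 alternative analyses, each scaling among them. The lowest small subunit genes were Mrps35 and Mrps31, at vehicle means of 1.80 and 2.47 FPKM.

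Mammals have 3 relatives of bacterial ribosomal protein S18. Only Mrps18c was classed here as its counterpart, while Mrps18a and Mrps18b were counted among the genes without a bacterial counterpart. Mrps18a had the highest level, with 13.8, 12.2 and 12.8 FPKM in vehicle and 13.1, 13.1 and 14.3 FPKM with S100A8/A9. Mrps18b was at 10.1, 6.96 and 7.90 FPKM in vehicle and 7.38, 8.48 and 11.8 FPKM with S100A8/A9. Its mean difference of 0.12 on the log2(FPKM + 1) scale turned negative without replicate 3 of S100A8/A9 (-0.05), as it did with the block and without replicate 3 of both groups (-0.08). Mrps18c was at 7.47, 8.68 and 6.09 FPKM in vehicle and 11.5, 8.43 and 9.03 FPKM with S100A8/A9. In the first table the vehicle ranges of Mrps18b and Mrps18c overlapped, while Mrps18a was above both in each vehicle library. The order differed in the second table, where vehicle levels were 6.14 FPKM for Mrps18a, 4.68 FPKM for Mrps18b and 7.58 FPKM for Mrps18c. Mrps36 matches the symbol rule and was kept, at a vehicle mean of 10.7 FPKM, but its product is now known as a part of the 2-oxoglutarate dehydrogenase complex, so it was counted in neither subunit.

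The tables ranked the genes differently. Pearson correlations of log2(FPKM + 1) over the 77 genes present in both were 0.933 to 0.971 when both libraries were of replicates 1 to 3, 0.99 between the pair of replicate 4, and only 0.707 to 0.763 when 1 library came from each table. Replicate 4 vehicle levels were between 0.357 and 4.05 times the mean of vehicle replicates 1 to 3, with 11 genes over 2 times and 4 under 0.5 times. Mrps33, at 2.57 FPKM in the first table and 10.4 FPKM in the second, and Mrps10, at 3.75 and 1.339 FPKM, were the extremes. Levels of single genes therefore hold only within a table.

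Variation between replicates was modest for most of these genes. The median SD of log2(FPKM + 1) over the 3 vehicle libraries was 0.145, against 0.154 over all genes tested, and in 68 of 78 genes the highest vehicle library was less than 1.5 times the lowest. Mrps33, Mrpl20, Mrps26 and Mrps12 varied most. Mrpl20 was at 10.5, 17.4 and 13.9 FPKM in vehicle and Mrps26 at 3.08, 5.37 and 3.98 FPKM. Mrps33, for example, was at 2.88, 3.33 and 1.49 FPKM in vehicle and 3.20, 3.28 and 2.24 FPKM with S100A8/A9, again lowest in replicate 3 of both groups. Summed FPKM of the 78 genes was 638, 642 and 586 in vehicle and 632, 646 and 678 with S100A8/A9. Vehicle replicate 3 was the lowest and S100A8/A9 replicate 3 the highest of the 6. Mean log2(FPKM + 1) of macrophage markers was 6.63, 5.87 and 5.27 in vehicle replicates 1 to 3 and 6.73, 5.95 and 5.39 with S100A8/A9, and that of neutrophil markers was 1.45, 1.97 and 2.28 and 1.46, 1.90 and 2.23. The part of cell makeup in the level of the 78 genes was not tested, and fewer cells of a type cannot be told apart from less RNA per cell in such cultures.

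**Figure D2:**
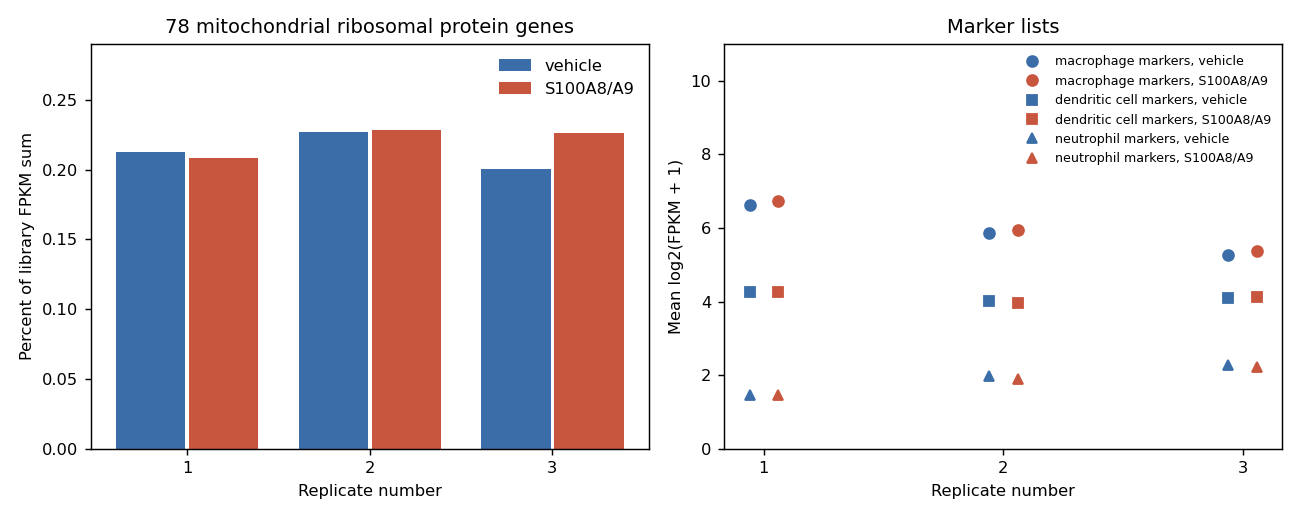
Left: share of each library's FPKM sum taken by the 78 genes, in percent, for vehicle and S100A8/A9 in replicates 1 to 3. Right: mean log2(FPKM + 1) of 3 marker lists in the same libraries. The share differs most between the groups in replicate 3 (0.201% and 0.226%), while the marker lists differ more between replicate numbers than between groups.

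Treated and vehicle cultures were compared for expression of this machinery. None of the 78 genes passed the threshold, an adjusted p under 0.05 over all 11387 genes, in limma without the replicate block or with it. Over all genes, 0% were called without the block and 0.518% (59 genes) with it, so a count of 0 among 78 is near that background. At an unadjusted p under 0.05, limma gave 5 of the 78 genes without the block, which is 6.41% of them, where the background was 3.02%. With the block it gave 6, which is 7.69% of them, where the background was 7.97%. The smallest adjusted p among the 78 was 0.736 without the block and 0.108 with it, both for Mrpl57. The median difference of the 78 genes was 0.047 on the log2(FPKM + 1) scale, beside 0.025 over all genes tested. It was 0.057 for the large and 0.032 for the small subunit.

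Directions were mixed. In 12 genes S100A8/A9 was higher than vehicle in all 3 pairs of one replicate number (15.4%, background 19.4%), in 5 it was lower in all 3 (6.41%, background 9.62%), and in 61 the sign differed between pairs. In 5 genes every S100A8/A9 library was above every vehicle library (6.41%, background 4.71%), and in 2 every one was below (2.56%, background 1.94%). By pair, the median difference of the 78 genes was -0.02 in replicate 1 and -0.004 in replicate 2, where 36 and 37 genes were higher. In replicate 3 it was 0.15, with 57 genes higher. The median over all genes tested was 0.08 there, so most of all genes tested were higher in that pair too. The share of all genes that were higher in a single pair was not counted. Without replicate 3 the median over the 78 genes was 0.004. In replicate 4 the median was -0.06 and 52 of 77 genes were lower, beside 0.02 over the tested genes.

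For 69 of the 78 genes the mean difference was within 0.2 of 0 on the log2 scale, and the range was -0.47 to 0.59. The median standard error of a difference was 0.103 with the block. The smallest difference among the 59 genes called with the block was 0.488 in size, and 1 of the 78 genes, Mrpl58, exceeded it. Mrpl58 itself did not pass (adjusted p = 0.277 in limma with the block). Standard errors with the block ran from 0.068 to 0.190 over the 78 genes, so 0.488 is no limit of detection for them. A change in a single gene of this group, smaller or larger than that, could therefore have been missed.

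**Figure D3:**
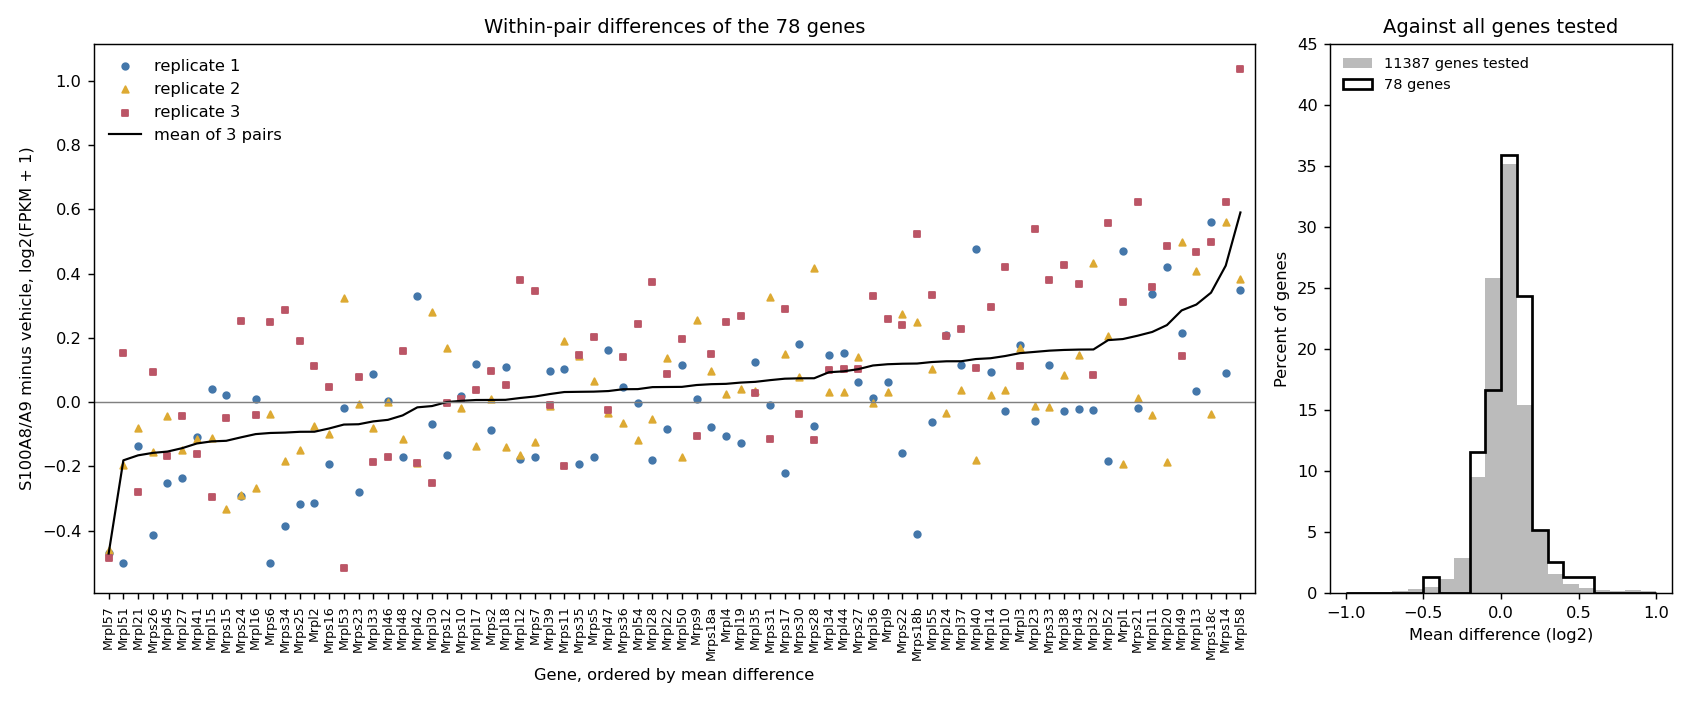
Left: difference between S100A8/A9 and vehicle in log2(FPKM + 1) for each gene within replicate 1, 2 and 3 (points) and their mean (line), ordered by the mean. Right: percent of genes by mean difference for the 78 genes (outline) and the 11387 genes tested (grey), cropped at 1 on either side. Replicate 3 lies above 0 in 57 genes, where the median over all genes tested was also above 0 (0.08). Of the 78 mean differences, 69 are within 0.2 of 0.

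Mrpl57 (mL63), a large subunit protein without a bacterial counterpart, had the smallest p in either fit. Its level was 5.38, 5.15 and 5.26 FPKM in vehicle and 3.61, 3.47 and 3.47 FPKM with S100A8/A9. All 3 treated libraries were below all 3 vehicle libraries, and both groups were tight. The means were 5.26 ± 0.112 and 3.52 ± 0.0771 FPKM (SD, n = 3 each), and the within-pair ratios were 0.671, 0.674 and 0.661. The difference was -0.47 ± 0.085 (SE with the block), and it did not pass, with limma's adjusted p at 0.108 under the block. In replicate 4 its 376 vehicle and 373 S100A8/A9 reads gave 3.99 and 3.78 FPKM and a ratio of 0.947, with an exact 95% interval from 0.818 to 1.096 that covers counting error only and does not reach the ratios of the first table. Mrpl57 lies on chromosome 14 from 57826234 to 57829296 on the forward strand, 49 bases from the start of Ska3, and none of its exons overlap another gene.

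Mrpl58, known also as ICT1, is a large subunit protein that can release the unfinished chain from a stalled mitochondrial ribosome. It was at 6.17, 4.50 and 3.66 FPKM in vehicle and 8.13, 6.18 and 8.57 FPKM with S100A8/A9. The groups were separated by little, since S100A8/A9 replicate 2 was just above vehicle replicate 1. Its ratios were 1.32, 1.37 and 2.34, and the difference of 0.59 ± 0.147 (SE with the block) did not pass: limma's adjusted p was 0.277 under the block and 1.00 when numbers were ignored. With the block and without replicate 3 the difference was 0.37. In replicate 4 the levels were 3.65 and 3.48 FPKM, a ratio of 0.952 (exact 95% interval from 0.825 to 1.099, counting error only). On chromosome 11, forward strand, Mrpl58 starts at 115403752 and ends at 115412674.

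Mrps14 (uS14m), of the small subunit, was at 3.03, 2.49 and 2.55 FPKM in vehicle and 3.29, 4.15 and 4.47 FPKM with S100A8/A9. The groups did not overlap, but the ratio in replicate 1 was 1.09 against 1.66 and 1.75 in replicates 2 and 3. Limma's adjusted p was 0.41 under the block. In replicate 4 its ratio was 1.14, with an exact 95% interval from 1.03 to 1.25 for counting error. Mrps14 lies on chromosome 1 from 160195215 to 160202170 on the forward strand.

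Mrpl13 (uL13m) was at 7.80, 6.30 and 5.58 FPKM in vehicle and 8.02, 8.68 and 8.10 FPKM with S100A8/A9. The treated libraries were alike, and the vehicle libraries were not. In replicate 4 the direction was the other one, with a ratio of 0.881 (exact 95% interval from 0.802 to 0.969, counting error only). Mrpl49 (mL49) was at 4.52, 4.16 and 5.27 FPKM in vehicle and 5.404, 6.28 and 5.93 FPKM with S100A8/A9, and at 10.1 and 10.98 FPKM in replicate 4. It shares 91 exon bases with Syvn1 on the other strand, a gene at 26.5 FPKM, and no strand marking is stated for these libraries. Mrps18c, given above, was higher in replicates 1 and 3 and lower in replicate 2. Under the block, limma's adjusted p-values of Mrpl13, Mrpl49 and Mrps18c were 0.502, 0.514 and 0.562. With the block and without replicate 2 the log2 difference of Mrpl49 went from 0.29 to 0.18 and that of Mrps18c from 0.34 to 0.53. Mrps18c was at 0.22 without vehicle replicate 3, and at the same value without S100A8/A9 replicate 1.

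**Figure D4:**
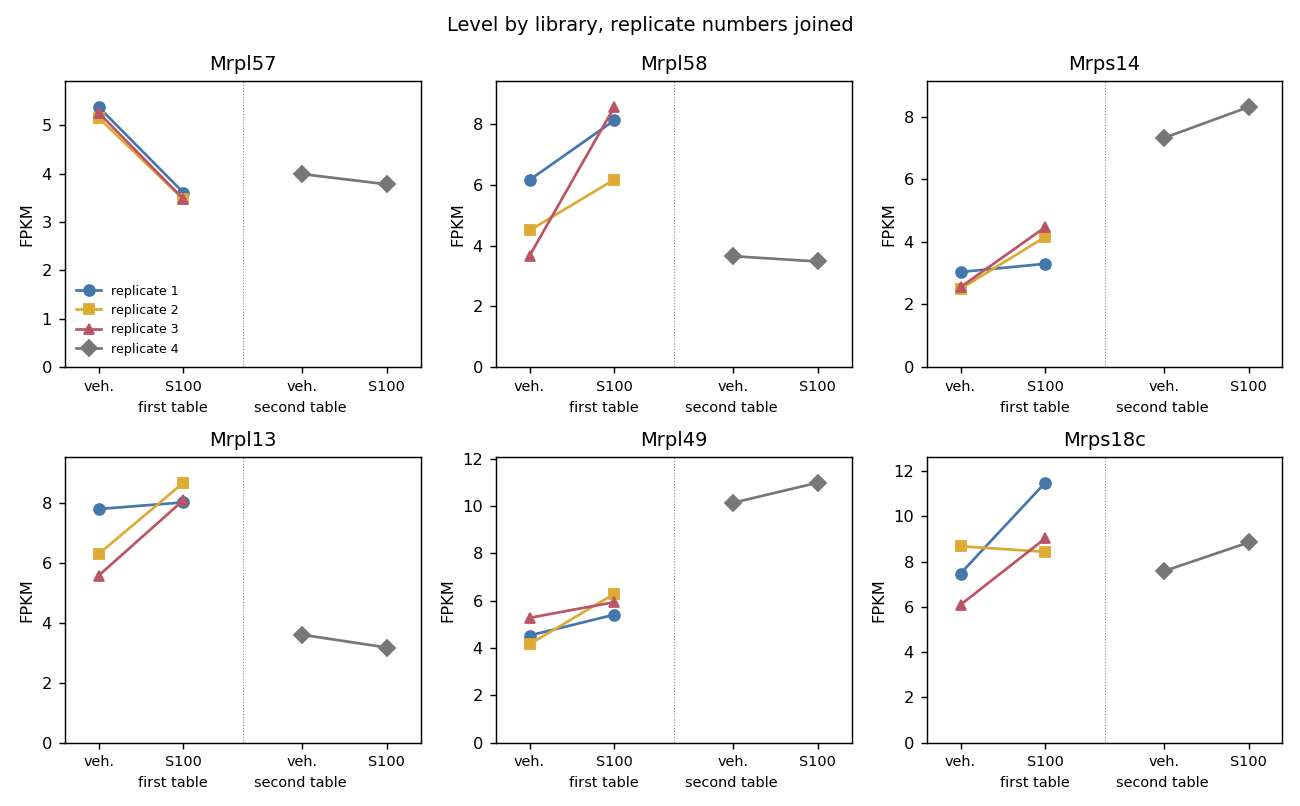
FPKM of 6 genes in vehicle (veh.) and S100A8/A9 (S100) libraries, with libraries of one replicate number joined. Replicates 1 to 3 are from the first table and replicate 4 from the second, separately made table, so levels are read within a table. Mrpl57 is lower in each of the first 3 pairs (ratios 0.671, 0.674 and 0.661) and is nearly level in replicate 4 (0.947).

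Other genes with 1 sign in all 3 pairs differed less. On the higher side were Mrpl3 (uL3m), which lines the peptidyl transferase center, and Mrpl14 (uL14m), which lies at the interface of the subunits, with geometric mean ratios of 1.14 and 1.11. Mrpl3 was at 4.14, 4.66 and 4.13 FPKM in vehicle and 4.81, 5.36 and 4.55 FPKM with S100A8/A9, and Mrpl14 at 10.3, 9.36 and 10.7 FPKM and 11.1, 9.52 and 13.3 FPKM. Replicate 3 of S100A8/A9 set the size for Mrpl14, whose difference of 0.14 on the log2(FPKM + 1) scale was 0.02 without that library. The difference of Mrpl3, 0.15, was 0.10 without S100A8/A9 replicate 2. On the lower side were Mrpl21, Mrpl45, Mrpl27 and Mrpl41, with geometric mean ratios of 0.880, 0.883, 0.897 and 0.907. Mrpl27 was at 12.2, 11.1 and 8.88 FPKM in vehicle and 10.2, 9.92 and 8.59 FPKM with S100A8/A9, and Mrpl41 at 12.1, 12.5 and 10.6 FPKM and 11.2, 11.4 and 9.39 FPKM. The groups overlapped in both. On the log2 scale Mrpl27 went from -0.14 to -0.05 without vehicle replicate 1, -0.07 without S100A8/A9 replicate 3 and -0.26 without vehicle replicate 3, and Mrpl41 from -0.13 to -0.05 without S100A8/A9 replicate 3. Mrpl21 (bL21m) was at 9.55, 9.57 and 9.14 FPKM in vehicle and 8.61, 8.98 and 7.36 FPKM with S100A8/A9, without overlap. Limma's adjusted p was 0.708 under the block, and the log2 difference went from -0.17 to -0.09 without S100A8/A9 replicate 3. Mrpl45, which holds the ribosome at the inner membrane, was at 6.44, 4.92 and 6.64 FPKM in vehicle and 5.25, 4.74 and 5.81 FPKM with S100A8/A9, with overlap. Its log2 difference of -0.15 was -0.09 without vehicle replicate 3 or S100A8/A9 replicate 2, and -0.27 without vehicle replicate 2. Mrpl37 was the remaining gene above vehicle without overlap, at 14.5, 15.6 and 14.2 FPKM in vehicle and 15.8, 16.0 and 16.9 FPKM with S100A8/A9.

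In replicate 4, counts of reads per gene in the vehicle library ranged from 141 to 1563, with a median of 643. Ratios of S100A8/A9 to vehicle ran from 0.589 to 1.21 with a median of 0.951. The exact 95% interval for counting error left out 1 for 22 of the 77 genes (28.6%), beside 38.2% of 10955 tested genes with whole reads and 32% of the 5784 with a vehicle read count in the same range. Of the 77 genes, 17 (22.1%) were lower and 5 (6.49%) higher, where the shares over the 5784 genes were 14.1% and 17.9%. With 1 library per group these ratios compare 2 libraries and not the treatments. The lowest was that of Mrps6, from 141 reads in vehicle and 87 with S100A8/A9, whose exons overlap those of Slc5a3. In replicates 1 to 3 Mrps6 was at 3.97, 3.38 and 3.22 FPKM in vehicle and 2.51, 3.27 and 4.01 FPKM with S100A8/A9.

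Exons of 33 of the 78 genes overlapped another annotated gene, in 23 cases a protein-coding one. For Mrps25, Mrps34 and Mrpl53 more than 50% of the exon length was shared with 1 other gene. Processed pseudogenes can also take reads: the model Mrpl48-ps was at 3.04, 2.10 and 1.61 FPKM in vehicle, beside 2.56, 2.85 and 2.63 FPKM for Mrpl48 itself.

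The rest of the mitochondrial translation machinery was read from the same fits, and none of its genes passed. The gene named from each list, here and below, is the one with the smallest p in the fit with the block. It is therefore the extreme of its list and not a typical member. Among 5 ribosomal proteins with other symbols, 0 of 5 passed, with a median difference of 0.084. Dap3 (mS29), a GTP-binding protein of the small subunit, was at 6.16 FPKM in vehicle and 7.14 FPKM with S100A8/A9 on average (adjusted p = 0.767 in limma with the block). Of the genes for ribosome assembly and modification of its RNA, 0 of 26 tested passed, with a median of 0.015. Mettl17, an assembly factor, had the smallest p there, at 12.6 and 14.8 FPKM (adjusted p = 0.705 in limma with the block).

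Of 14 translation factors 0 passed, and the median was -0.07. Mtfmt, which formylates the initiator methionyl-tRNA, was at 3.06, 2.93 and 3.28 FPKM in vehicle and 4.46, 3.59 and 4.24 FPKM with S100A8/A9. Its groups did not overlap, and limma's adjusted p was 0.4 under the block. Replicate 4 gave 3.04 and 3.85 FPKM. Of 20 aminoacyl-tRNA synthetases tested, 0 passed, with a median of 0.004. Lars2, the leucyl-tRNA synthetase, had the smallest p (adjusted p = 0.575 in limma with the block) and was listed at means of 1396 and 1270 FPKM, where the median of its list was 3.45 FPKM. In the second table Lars2 was at 91.8 and 77.3 FPKM.

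Among 9 tested genes for transcription and upkeep of the mitochondrial genome and 10 regulators of mitochondrial biogenesis, 0 passed, with medians of 0.013 and 0.021. Polg, the mitochondrial DNA polymerase, was at 11.1 and 10.01 FPKM on average (adjusted p = 0.809 in limma with the block). Pprc1, a coactivator related to PGC-1alpha, was at 11.97, 18.2 and 18.05 FPKM in vehicle and 13.6, 20.7 and 21.6 FPKM with S100A8/A9, higher in each pair (adjusted p = 0.443 in limma with the block). The protein genes of the mitochondrial genome, which the ribosome described here translates, had a median difference of -0.03 over 12 tested genes with 0 passing. Of these, mt-Co3, a subunit of cytochrome c oxidase, was at 8.51, 9.02 and 5.46 FPKM in vehicle. With S100A8/A9 it was at 7.38, 4.98 and 3.99 FPKM, lower in each pair (adjusted p = 0.347 in limma with the block). In replicate 4 it was at 129 and 53.8 FPKM. The median of its list in vehicle replicates 1 to 3 was 1113 FPKM, far above mt-Co3. Why mt-Co3 was listed so low was not tested. For 77 protein genes of the cytosolic ribosome the median was 0.033 with 0 passing, and Rpl27 had the smallest p, at means of 124.5 and 150.8 FPKM (adjusted p = 0.585 in limma with the block). No difference between these lists and the 78 genes was tested.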

How the data were processed

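Messenger RNA of 8 libraries was sequenced, per the labels' protocols. The authors deposited FPKM per Ensembl gene in 2 tables, a unit inferred from the values. Tools listed in the submitters' processing notes are HISAT2, Subread with featureCounts, and DESeq2 1.34.0, beside the build mm10; their order and roles are not given in the sources used here. In replicate 4, 98.5% and 98.8% of values worth up to 20 reads were whole reads within 0.01. In replicates 1 to 3 only 5.33% to 6.14% were, so depth is rough there. Differences were tested within the first table, and a fit over both tables, with the table as a term, served as an alternative.

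Symbols came from a table of Ensembl names, and biotypes, exons and positions from GENCODE M21 (GRCm38). Limma 3.58.1 (trend, R 4.3.3) tested log2(FPKM + 1) in replicates 1 to 3, two-sided, after a filter of 1 FPKM or more in any 3 of the 6 libraries, with Benjamini-Hochberg adjustment over all 11387 genes. Fold changes on this scale understate changes of low genes. Deviations from group means correlated at 0.25 to 0.59 between same-numbered libraries and at -0.53 to -0.01 otherwise. Same-numbered libraries thus resembled each other more than the rest. Deviations within a group sum to 0, so these ranges are not independent of each other. What same-numbered libraries share was not tested. A second fit had the replicate number as a term (the block). It left 2 residual degrees of freedom, against 4 without the block.

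The genes and lists were chosen with earlier results of these data known. Genes named were the 8 highest, the 5 lowest, and up to 6 with the largest rise and fall of 1 sign in all pairs. Also named were the 4 with the smallest p in each fit, the 4 most variable and 6 fixed ones. The fixed ones were Mrpl12, Mrpl58, Mrps12, Mrps18a, Mrps18b and Mrps18c. From each other list the rule took the 1 gene with the smallest p in limma with the block. Mrpl37, Mrpl46, Mrpl48, Mrps6, Mrps10, Mrps11, Mrps23, Mrps25, Mrps30, Mrps34 and Mrps36 are outside this rule and were named after their values were seen. Subunit classes follow textbook nomenclature, and Mrps28 and Mrpl55 were moved to the class with a bacterial counterpart after values had been seen.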

Additional observations from a re-analysis of the deposited data

How the results depend on the processing

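None of the genes, nor of the other genes of mitochondrial translation, was called by limma in the 23 alternative analyses, 5 of them added after seeing the data; 78 genes were tested in 20 of these and 77 in 3. Their median difference lay between 0.004 and 0.083. Over all genes, 59 were called with the replicate block. With the block and another scaling, added after seeing the data, the count was 39 for a common FPKM sum and 3 each for upper-quartile factors, median-of-ratios factors and quantile normalization, and it was 0 with the block and no filter. Leaving out single libraries gave 0 to 1, the 1 without vehicle replicate 2. With the replicate block, leaving out replicate 1, 2 or 3 of both groups gave 40, 98 and 7. Of 77 genes, 7 (9.09%) were higher in all 4 pairs with all 8 libraries, with or without the replicate block, beside 11.6% of all genes tested. With quantile normalization, with or without the block, 8 of 78 (10.3%) were lower, beside 16.4%. With 2 pairs left, 15 to 29 were higher and 10 to 20 lower. Under the replicate block, leaving out replicates 1, 2 and 3 gave 29, 25 and 15 higher (37.7%, 32.1% and 19.2%, beside 35.4%, 33% and 28% of all genes tested) and 13, 10 and 20 lower (16.9%, 12.8% and 25.6%, beside 16.4%, 17.6% and 28.2%).

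Of the 16 genes followed across the alternatives, 13 kept their direction, and 3 of the 6 fixed genes did not. The 13 include 6 higher and 5 lower genes that were picked because their sign was the same in each pair. Leaving out a whole pair cannot reverse such a gene, so the count of 13 was largely set by the choice of genes. Mrps18a and Mrps18c kept their direction without being picked in that way. Mrpl12 (0.01) reversed in 15 alternatives. It was -0.0055 with a common FPKM sum, -0.0077 with upper-quartile factors, -0.015 with median-of-ratios factors and -0.031 with quantile normalization, the same with the replicate block, and -0.029 with all 8 libraries. Leaving out a library or pair gave Mrpl12 a range of -0.17 to 0.13 (-0.089 without S100A8/A9 replicate 3). Mrps12 (0.0003) also reversed in 15, with -0.018, -0.019, -0.026 and -0.048 under these scalings, with or without the replicate block, -0.043 with all 8 libraries, and -0.14 to 0.18 when a library or pair was left out (-0.083 with the replicate block and without replicate 2). Mrps18b (0.12) reversed in 2, at -0.053 without S100A8/A9 replicate 3 and -0.081 with the replicate block and without replicate 3, and single libraries left out gave -0.053 to 0.26. The cause of these shifts was not tested. Limma's adjusted p of Mrpl57 ranged from 0.102 to 1. The smallest for any of the genes was that of Mrps18c, 0.096 in limma with the replicate block and without replicate 2.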
